A study of Homo sapiens with 18 samples.

Results

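Chromatin accessibility at the starts of long non-coding RNA (lncRNA) genes was examined in Ccd18-Co, an established line of human colon fibroblasts. A peak was taken as a lncRNA-start peak when it lay on an autosome, its centre was within 1 kb of a transcript start of a lncRNA gene, and its centre was more than 5 kb from every transcript start of a protein-coding gene (GENCODE release 44, hg38). The choice used position alone and no measured value. It was met by 7964 of 334857 peaks (2.38%), at 5239 of 18390 autosomal lncRNA genes (28.5%). Each peak is named by the lncRNA gene with the nearest start. Many genes have several annotated transcript starts, so the start meant for a peak can lie inside the gene.

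Accessibility was measured by bulk ATAC-seq, in which a transposase cuts open DNA and tags the ends for sequencing, as the count of fragments per peak in 18 libraries from 3 groups of 6. Unstimulated cells (unstimulated) are named in the labels without cytokine, solvent or drug. The stimulated_DMSO and stimulated_Belinostat groups were given 3 cytokine pulses, each of 72 h with TNF, OSM and IL-17A (10 ng/ml of each) and IL-1β (0.1 ng/ml) and then 96 h of recovery, and after a rest of 1 week took either the solvent DMSO or 250 nM belinostat for 5 days. Belinostat inhibits histone deacetylases. Chromatin was collected 2 weeks after the drug, so the libraries show what remained and not the acute response. DMSO minus unstimulated is called the cytokine contrast, belinostat minus DMSO the belinostat contrast and belinostat minus unstimulated the residual contrast. The cytokine and the belinostat contrast share the DMSO libraries. All libraries came from 1 cell line, the labels do not say whether replicates were separate cultures, and p-values measure the spread between these libraries only. Because whole populations were profiled, fewer cells with an open site and less opening per cell cannot be told apart.

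LncRNAs are transcripts without a long reading frame that are capped, often spliced and mostly less abundant than messenger RNAs, and several act as scaffolds, as hosts of small RNAs or through transcription of their own locus. Promoters that are active in most cell types often lie in CpG islands, which are rich in the dinucleotide CG and bound by factors such as SP1, whereas starts that serve few cell types often resemble enhancers and hold sites of factors such as AP-1 and TEAD. AP-1 binds TGANTCA and transmits inflammatory and growth signals, and TEAD binds GGAATG and acts in the Hippo pathway of mesenchymal cells.

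The sequences below show the contrast in base composition within the lncRNA-start peaks. Each is the middle 200 bases of a peak on hg38, written 5′ to 3′ on the strand of the lncRNA, with every CG in capitals. MIRLET7A1HG (chr9:94165997-94166196, plus strand) was the strongest lncRNA-start peak and MIR17HG (chr13:91348122-91348321, plus strand), host of a growth-promoting microRNA cluster, is another CpG-rich start. LINC00486 (chr2:32883241-32883440, plus strand) and LINC01914 (chr2:41932373-41932572, minus strand) are CpG-poor and are named below for falls in the cytokine and the belinostat contrast.
MIRLET7A1HG: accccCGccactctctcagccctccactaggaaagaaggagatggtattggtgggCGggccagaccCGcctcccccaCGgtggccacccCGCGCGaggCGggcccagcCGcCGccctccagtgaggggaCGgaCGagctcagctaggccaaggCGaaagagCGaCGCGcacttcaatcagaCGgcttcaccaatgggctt
MIR17HG: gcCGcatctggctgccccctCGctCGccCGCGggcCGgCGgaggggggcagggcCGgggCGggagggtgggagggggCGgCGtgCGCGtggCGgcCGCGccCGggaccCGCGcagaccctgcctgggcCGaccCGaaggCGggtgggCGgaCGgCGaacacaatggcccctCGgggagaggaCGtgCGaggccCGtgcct
LINC00486: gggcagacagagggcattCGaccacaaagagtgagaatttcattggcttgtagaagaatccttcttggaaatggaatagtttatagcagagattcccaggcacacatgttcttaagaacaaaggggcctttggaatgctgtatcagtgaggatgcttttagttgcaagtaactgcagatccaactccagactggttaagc
LINC01914: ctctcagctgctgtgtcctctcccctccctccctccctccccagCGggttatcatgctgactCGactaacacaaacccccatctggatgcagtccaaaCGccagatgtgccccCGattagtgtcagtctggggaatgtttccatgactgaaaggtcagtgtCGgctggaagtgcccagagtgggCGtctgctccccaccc
These windows held 17 CG in MIRLET7A1HG, 29 in MIR17HG, 1 in LINC00486 and 6 in LINC01914.

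A second set shows words of AP-1 and TEAD in CpG-poor peaks that changed under belinostat. TGANTCA or GGAATG, on either strand, is in capitals in the middle 200 bases of HCG18 (chr6:30319376-30319575, minus strand), LINC00607 (chr2:215660846-215661045, minus strand) and LINC01814 (chr2:8545107-8545306, minus strand), which fell, and of HRG-AS1 (chr3:186746132-186746331, minus strand), which rose.
HCG18: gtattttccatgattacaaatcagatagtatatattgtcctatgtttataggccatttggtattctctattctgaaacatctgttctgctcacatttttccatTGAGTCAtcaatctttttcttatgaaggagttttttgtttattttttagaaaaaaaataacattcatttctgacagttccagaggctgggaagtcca
LINC00607: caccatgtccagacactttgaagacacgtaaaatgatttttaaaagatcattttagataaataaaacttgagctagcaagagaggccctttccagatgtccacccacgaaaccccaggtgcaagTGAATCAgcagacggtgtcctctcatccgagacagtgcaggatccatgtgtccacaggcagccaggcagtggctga
LINC01814: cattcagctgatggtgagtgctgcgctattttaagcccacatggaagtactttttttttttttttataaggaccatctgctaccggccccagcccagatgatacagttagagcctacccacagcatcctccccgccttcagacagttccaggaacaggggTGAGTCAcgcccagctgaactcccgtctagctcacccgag
HRG-AS1: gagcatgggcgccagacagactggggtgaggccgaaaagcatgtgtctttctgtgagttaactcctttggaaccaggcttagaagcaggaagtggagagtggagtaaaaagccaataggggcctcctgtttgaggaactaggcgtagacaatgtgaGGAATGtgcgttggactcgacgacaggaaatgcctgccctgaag
The capitals mark an AP-1 word in the first 3 of these and a TEAD word in HRG-AS1. A match describes letters, and binding was not measured.

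The last set gives mature microRNAs made from lncRNA hosts described below, from RefSeq (GRCh38.p14), with the seed (bases 2 to 8) in capitals. The hosts are CARMN on chromosome 5 for miR-143 and miR-145, which are abundant in smooth muscle and fibroblasts, and MIRLET7A1HG on chromosome 9 for let-7a, a widely expressed family that restrains growth. All 3 lay inside the annotated body of the host on its strand, and the 3 seeds differ from each other.
hsa-miR-143-3p: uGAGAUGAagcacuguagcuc
hsa-miR-145-5p: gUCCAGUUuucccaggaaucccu
hsa-let-7a-5p: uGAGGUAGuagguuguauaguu

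Most lncRNA-start peaks belonged to genes known by an identifier only. Of the 7964, 4603 (57.8%) lay at genes with an Ensembl ID and no symbol, 1746 (21.9%) at LINC genes, 600 (7.53%) at named antisense genes, 168 (2.11%) at small RNA host genes and 80 (1.00%) at divergent transcripts. With respect to coding genes, 5406 (67.9%) belonged to lncRNAs whose body overlaps no coding gene, 1963 (24.6%) to lncRNAs antisense to one and 595 (7.47%) to lncRNAs that overlap one in sense. The nearest coding start was a median of 41.2 kb away. In the annotation 1953 centres (24.5%) fell in the first exon of the lncRNA, 2755 (34.6%) in an intron, 322 (4.04%) in a later exon and 2934 (36.8%) outside the gene body. There were 3472 genes with 1 such peak and 1767 with 2 or more.

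Peak centres piled up at the annotated start, although the choice allowed any place within 1 kb. Distances are to the nearest of all annotated starts, which shortens them where starts are dense. No comparison with randomly placed peaks was made. Within 100 bp of a start lay 1849 centres (23.2%) and within 250 bp 3453 (43.4%), and 4064 were upstream. Per bin of 50 bp the number rose from 128 at the upstream edge to 564 in the last bin before the start and returned to 113 at the downstream edge. The share of CpG-rich peaks (GC content of at least 55% and observed over expected CG of at least 0.6 in the 300 bases around the centre) followed the same course, from 3.91% at the upstream edge to 25.2% in the bin just after the start. At the edge of the 1 kb limit the values changed little: 488 peaks with centres in its last 100 bp had a median level of 2.96 in unstimulated libraries, in counts scaled to library size (CPM) per kb of peak, and 473 peaks with centres in the next 100 bp beyond it, which are no lncRNA-start peaks, had 2.94.

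**Figure D1:**
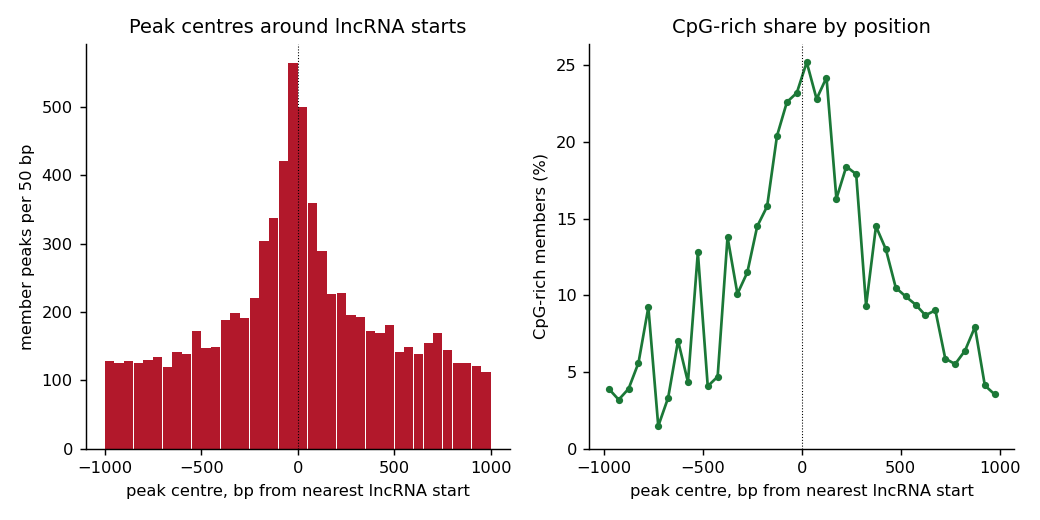
Left, number of lncRNA-start peaks per 50 bp bin of distance (bp) between the peak centre and the nearest lncRNA start, negative upstream on the strand of the lncRNA. Right, percent of the peaks in each bin that were CpG-rich. Both are highest at the start, with 564 peaks in the bin before it and 25.2% CpG-rich in the bin after it.

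In strength and composition the lncRNA-start peaks stood between distal peaks and coding starts. The median level in unstimulated libraries was 3.29 CPM per kb, against 2.63 at 220293 autosomal distal peaks and 6.77 at 38736 peaks within 1 kb of a coding start, and it was 4.95 at 1383 peaks at lncRNA starts that lie near a coding start. CpG-rich sequence made up 13.9% of lncRNA-start peaks (1108), 38.9% of coding starts and 1.23% of distal peaks. The CpG-rich group was wider (median 734.5 bp against 288 bp) and stronger (8.21 against 3.03 CPM per kb) than the 6856 CpG-poor lncRNA-start peaks. In windows of 300 bases the SP1 word GGGCGG, which itself holds a CG, occurred in 69.5% of the CpG-rich and 11.0% of the CpG-poor group, and in 11.4% of all autosomal peaks. The AP-1 word went the other way, with 3.25% of the CpG-rich and 19.6% of the CpG-poor group, against 17.8% of all autosomal peaks. The TEAD word lay in 19.8% of all lncRNA-start peaks and 21.3% of all autosomal peaks. These are counts of words on both strands, and words may share bases.

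**Figure D2:**
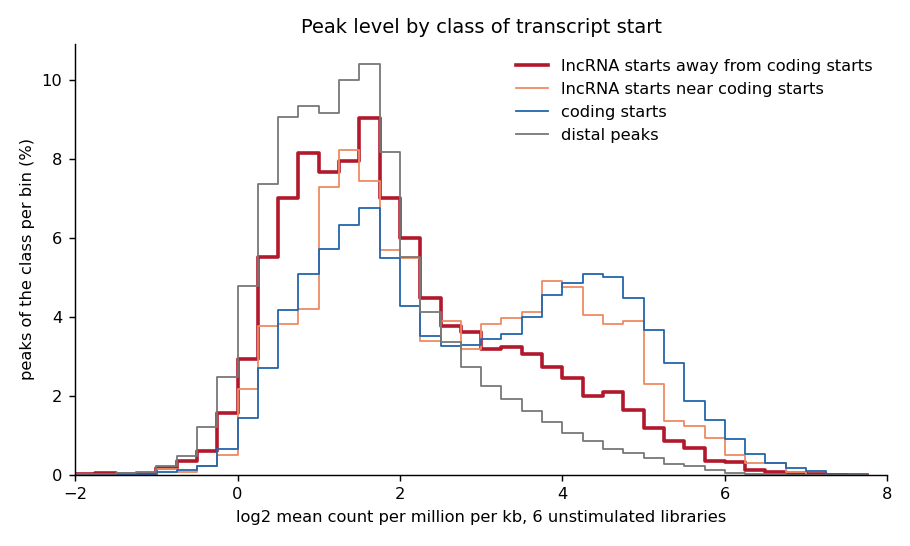
Distribution of peak levels, as log2 of the mean CPM per kb of peak in the 6 unstimulated libraries, for lncRNA starts away from coding starts (7964 peaks), lncRNA starts near coding starts, coding starts and distal peaks, each in percent of its class. Medians, before the log2 step, are 3.29, 4.95, 6.77 and 2.63, so the lncRNA starts lie between distal peaks and coding starts.

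MIRLET7A1HG, whose transcript gives rise to let-7a, reached 140.0 CPM per kb, the highest value. PDK4-AS1, antisense to the gene of a kinase that switches cells from glucose to fatty acids, reached 116, LINC02709 96.3 and DIRC3, a large lncRNA next to IGFBP5, 91.5. Of the other 6 among the 10 strongest, all with an Ensembl ID only, the peak of ENSG00000249406 (99.7 CPM per kb) was centred 8144 bp from the nearest start of COL1A1, the gene of type I collagen. Lengths of peaks are taken into account in these values, but not the ease with which a sequence is cut.

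Library totals in peaks were 7077321 to 11352032 fragments in unstimulated, 6488975 to 8066642 in DMSO and 4661678 to 6370845 in belinostat libraries. LncRNA-start peaks took 3.23% to 3.30%, 3.15% to 3.25% and 3.13% to 3.26% of them. The 2 libraries that stood apart were unstimulated 6, which had no fragment in 8.83% of the lncRNA-start peaks (0.665% to 3.48% in the other 5) and stimulated_Belinostat 1, with none in 4.72% (0.414% to 1.78%). All 10 fibroblast markers examined, among them COL1A1, PDGFRA and TWIST1, had a peak at a start in the strongest class of peaks, with summed CPM of 253 to 293, 186 to 241 and 159 to 246 in the 3 groups. The epithelial marker KRT20 and the leukocyte marker SPI1 had none, and start peaks of the epithelial, leukocyte, endothelial and neural markers with such a peak summed to 18.7 CPM or less per list in every library. How these sums bear on the lncRNA results was not tested.

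Many calls depended on the library scaling, so 2 scalings are given side by side. TMM factors (trimmed mean of M values) give each library 1 factor. Loess offsets follow the trend of each library along peak abundance and remove any difference that strong or weak peaks share. With TMM factors all peaks had a median log2 fold change of 0.13 in the cytokine, 0.01 in the belinostat and 0.20 in the residual contrast, and with loess offsets 0.01, 0.00 and 0.03. A peak was called opened or closed at an adjusted p under 0.05 (edgeR quasi-likelihood test, Benjamini-Hochberg over all 334857 peaks).

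After cytokines more lncRNA-start peaks were called closed than opened with TMM factors, and the closed ones were strong peaks. With TMM factors 644 (8.09%) opened, against 9.51% of all peaks, and 1044 (13.1%) closed, against 9.73% of all peaks. The median log2 fold change was 0.02, below the 0.13 of all peaks. With loess offsets the numbers were 179 opened (2.25%, all peaks 1.86%) and 149 closed (1.87%, all peaks 1.91%). Of the calls, 121 opened and 119 closed peaks passed under both scalings. The balance turned with the scaling: with library totals 14.3% opened and 3.82% closed (all peaks 16.2% and 3.25%), and with TMM factors from the weaker 50% of peaks 1.83% and 30.6% (all peaks 2.31% and 24.2%). Without unstimulated 6, 4.60% opened and 8.02% closed (all peaks 5.52% and 6.18%). A stricter count asked in addition that mean log2 CPM reached 1 and that the 2 groups' libraries did not overlap: 12 lncRNA-start peaks (0.151%) rose by it, against 0.172% of all peaks, and 377 (4.73%) fell, against 3.51%.

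The excess of closed calls followed the level of the peaks. In the strongest of 5 classes of average log2 CPM, 42.4% of the 2264 lncRNA-start peaks closed and 42.4% of all peaks, and in the weakest class 12.2% of both opened. With loess offsets the strongest class had 3.80% opened and 3.49% closed lncRNA-start peaks, against 3.49% and 3.69% of all peaks. Coding starts, which are stronger, had 29.1% closed with TMM factors and distal peaks 6.67%. CpG-rich lncRNA-start peaks closed in 32.9% of cases and CpG-poor ones in 9.90% with TMM factors, against 45.2% and 7.27% over all peaks. With loess offsets the shares were 1.53% and 1.93%, against 0.548% and 2.00% over all peaks.

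**Figure D3:**
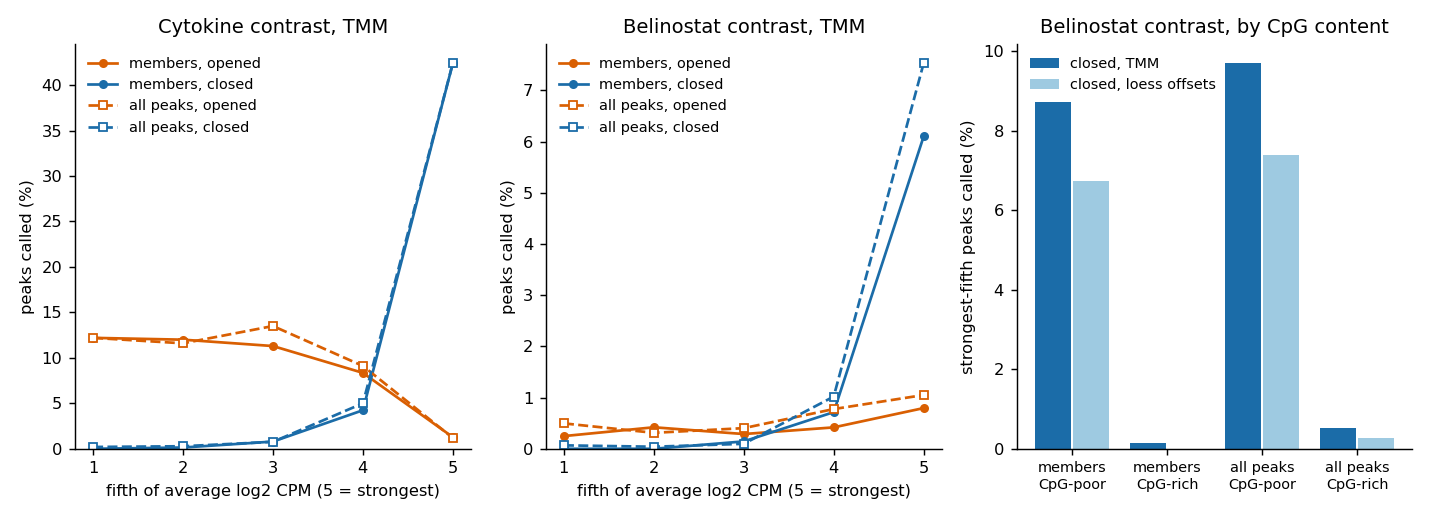
Percent of peaks called by edgeR in 5 classes of average log2 CPM (5 is the strongest) for the cytokine (left) and the belinostat contrast (middle), for lncRNA-start peaks (members, solid) and all peaks (dashed). Right, percent of strongest-class peaks closed by belinostat in CpG-poor and CpG-rich sequence, with TMM factors (dark) and loess offsets (pale), where 8.72% and 6.74% of CpG-poor members stand beside 0.145% and 0% of CpG-rich members. Cytokine closure climbs to 42.4% in the strongest class for both sets of peaks.

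Among the rises that met the naming rule (adjusted p, a mean log2 CPM of 1 or more and no overlap between the groups), FAM99B (chr11:1685024-1686618, upstream of the start), a lncRNA of hepatocytes, had log2 CPM of 1.15, 1.78 and 2.40 (lowest, median, highest) in unstimulated, 2.48, 2.77 and 2.98 in DMSO and 2.23, 2.72 and 3.10 in belinostat libraries. The DMSO libraries all lay above the unstimulated ones, with a log2 fold change of 0.90 ± 0.17 (SE, n = 6 and 6, adjusted p = 6.27e-05, edgeR). Its neighbour and paralogue FAM99A rose by 1.06 ± 0.29 (adjusted p = 0.00688, edgeR), and reads of such copies may be shared between them. LINC01093 (chr4:184899171-184899620), another liver-expressed lncRNA, went from 0.11, 0.39 and 0.88 in unstimulated to 0.93, 1.62 and 1.81 in DMSO libraries, without overlap (1.24 ± 0.25, adjusted p = 0.00022, edgeR). FAM99A, looked at because it is listed, had overlapping groups. Levels in unstimulated libraries were 2.14 CPM per kb for FAM99B, 1.86 for FAM99A and 2.43 for LINC01093, below the median of lncRNA-start peaks. Of other listed lncRNAs expressed in liver, neither of the following was called: LINC00261 with 1.07 ± 0.47 (adjusted p = 0.0882) and HULC with 0.92 ± 0.49 (adjusted p = 0.167, edgeR).

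The remaining named rises had levels of 1.09 (LINC01838) to 4.11 (LINC01033) CPM per kb in unstimulated libraries. LINC01471 rose by 1.09 ± 0.26 (log2, SE), LINC01838, the CpG-rich start among them, by 0.96 ± 0.25 and LINC01033 by 0.91 ± 0.23, with adjusted p of 0.00169, 0.00416 and 0.00328 (edgeR). The largest rise among the named peaks belonged to ENSG00000286951 (chr10:24415588-24416554), antisense in KIAA1217, with 0.54, 0.76 and 1.24 in unstimulated, 1.72, 1.97 and 2.32 in DMSO and 0.86, 1.38 and 1.53 in belinostat libraries. Both steps were without overlap: it rose by 1.30 ± 0.21 after cytokines (adjusted p = 3.99e-06, edgeR) and fell by 0.73 under belinostat (SE 0.21, adjusted p = 0.029, edgeR). ENSG00000224079, in the body of C7orf50, rose by 1.16 ± 0.28 (adjusted p = 0.00177, edgeR). The counts behind these rises were 1 to 32 fragments per library.

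The named falls after cytokines were at peaks of 7.20 (PPP1R3B-DT) to 16.0 (LINC00486) CPM per kb. LINC00486 (chr2:32882932-32883751, in an intron 540 bp past the start) had 3.49, 3.81 and 3.90 in unstimulated, 1.71, 2.14 and 2.91 in DMSO and 1.85, 2.31 and 2.61 in belinostat libraries. All stimulated libraries lay below all unstimulated ones. The fall was 1.46 on the log2 scale with TMM factors (log2 fold change -1.46 ± 0.15, adjusted p = 3.28e-14, edgeR) and the value -1.17 with loess offsets, and belinostat moved it by -0.04 ± 0.18 (adjusted p = 0.931). BANCR, a lncRNA first described in melanoma cells with active BRAF, went from 3.06, 3.47 and 3.69 to 0.82, 2.59 and 2.83 and stood at 2.15, 2.90 and 3.09 under belinostat. Its cytokine value was -1.04 ± 0.16 (adjusted p = 4.2e-07, edgeR), and its belinostat value 0.41 ± 0.17 passed the threshold with loess offsets (0.51, adjusted p = 0.0497) but not with TMM factors (adjusted p = 0.211).

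HCG18, a lncRNA of the HLA region, had -0.89 ± 0.16 (adjusted p = 1.74e-05, edgeR) after cytokines and LINC02554 -0.90 ± 0.17 (adjusted p = 9.15e-05, edgeR). PPP1R3B-DT, by its name divergent to the gene of a regulator of glycogen synthesis, had -0.90 ± 0.18 (adjusted p = 0.000162, edgeR). Its peak was centred 16818 bp from the nearest start of PPP1R3B. By the naming rule none of the 3 overlapped between the groups. Of genes with an Ensembl ID only, ENSG00000267196, in the body of MYO5B, fell most (1.58, 1.93 and 2.08 against -0.78, 0.56 and 1.21, log2 fold change -1.47 ± 0.23, adjusted p = 1.69e-06, edgeR), followed by ENSG00000288985 with -1.23 ± 0.19. With loess offsets these 5 falls had values of -0.66 to -1.46 and all passed the threshold.

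All of the 10 strongest lncRNA-start peaks were called closed after cytokines with TMM factors, by values of -0.27 (DIRC3) to -0.46 (LINC02709). With loess offsets their values were -0.04 to 0.15, and 1 call was left, ENSG00000287351, which was then opened (0.15, adjusted p = 0.0481). MIRLET7A1HG, for example, had 6.26, 6.35 and 6.55 in unstimulated, 5.80, 6.07 and 6.22 in DMSO and 5.47, 5.65 and 6.02 in belinostat libraries, with -0.35 ± 0.10 (adjusted p = 0.0095, edgeR) under TMM and 0.08 (adjusted p = 0.306) under loess. Belinostat called none of the 10 with either scaling.

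**Figure D4:**
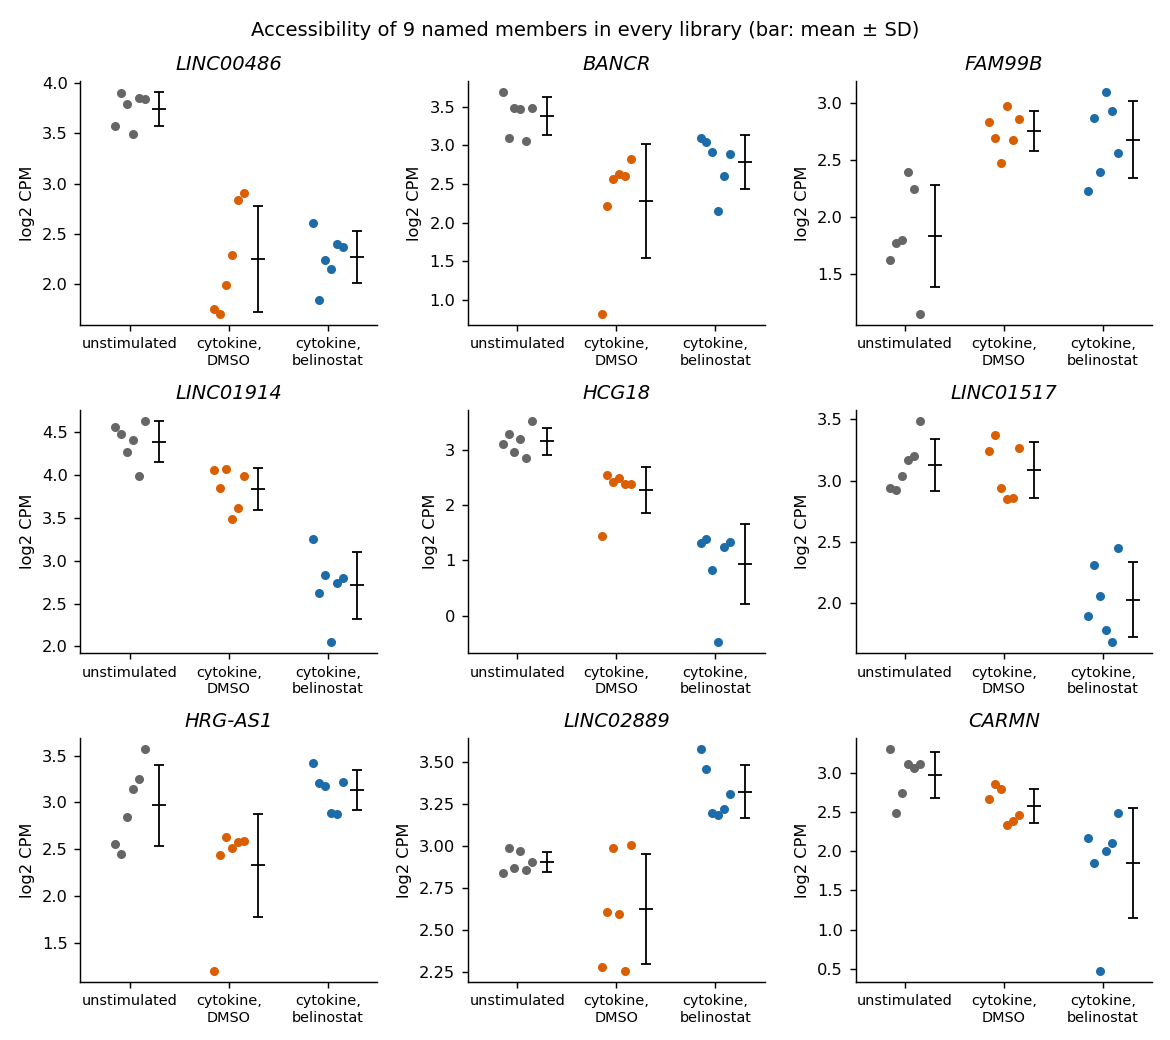
Log2 CPM of 9 lncRNA-start peaks in each of the 18 libraries (points), with mean ± SD of the 6 libraries of a group (bar), for unstimulated, DMSO and belinostat libraries. LINC00486 and BANCR are lower and FAM99B is higher after cytokines; LINC01914, HCG18, LINC01517 and CARMN are lowest under belinostat, and HRG-AS1 and LINC02889 are higher under belinostat than with DMSO.

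Belinostat changed few lncRNA-start peaks and closed more than it opened. With TMM factors 38 (0.477%) opened, against 0.607% of all peaks, and 152 (1.91%) closed, against 1.75% of all peaks. With loess offsets 91 (1.14%, all peaks 0.95%) opened and 127 (1.59%, all peaks 1.55%) closed, and 27 opened and 120 closed peaks passed under both. By the stricter count without overlap 6 rose (0.0753%, all peaks 0.0415%) and 66 fell (0.829%, all peaks 0.715%). Without stimulated_Belinostat 1, the library with many empty peaks, 55 opened (0.691%, all peaks 0.855%) and 245 closed (3.08%, all peaks 2.60%).

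Closure by belinostat was rarely called at CpG-rich lncRNA starts. It was found in 1 of 1108 CpG-rich and 151 of 6856 CpG-poor lncRNA-start peaks. Since CpG-rich peaks are stronger and strong peaks are called more readily, the strongest class was looked at alone: there 1 of 692 CpG-rich and 137 of 1572 CpG-poor peaks (8.72%) closed, and with loess offsets 0 and 106 (6.74%). Over all peaks of that class the shares were 0.519% and 9.70%, a split in the same direction. Without stimulated_Belinostat 1 the numbers were 27 of 692 and 202 of 1572. With a GC limit of 50% in place of 55%, 2 of 1192 CpG-rich peaks closed. In the cytokine contrast the split of the strongest class ran the other way with TMM factors. There 51.9% of CpG-rich and 38.2% of CpG-poor lncRNA-start peaks closed (all peaks 61.5% and 36.5%). With loess offsets the order was that of the belinostat contrast, with 1.16% and 4.52% closed (all peaks 0.462% and 4.68%). Under belinostat 1 of 1108 CpG-rich and 37 of 6856 CpG-poor lncRNA-start peaks opened with TMM factors (all peaks 0.106% and 0.642%). With loess offsets 22 (1.99%) and 69 (1.01%) opened, against 1.29% and 0.926% over all peaks. The split by CpG was chosen after the calls had been seen, and no test was made of it.

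The letters of closed and opened peaks also differed. The AP-1 word lay in 59 of the 152 closed lncRNA-start peaks (38.8%) and 4 of the 38 opened ones (10.5%), the TEAD word in 24 (15.8%) and 18 (47.4%). In uncalled CpG-poor lncRNA-start peaks of the strongest class the shares were 27.1% for AP-1 and 24.1% for TEAD. Of the same kind of peak, the 137 closed ones had 38.7% and 16.1%. The 17 opened ones, a small set, had 17.6% and 41.2%. Over all autosomal peaks, 38.3% of 5764 closed and 12.2% of 1979 opened peaks held the AP-1 word and 18.0% and 41.5% the TEAD word, the same order as at the lncRNA starts. The SP1 word was found in 8.55% of closed lncRNA-start peaks against 16.9% of the uncalled ones. These shares describe the sets and were not tested.

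HCG18 had the largest fall among the named peaks under belinostat. Its peak (chr6:30319198-30319755, in an intron 791 bp past the start, with the AP-1 word shown above) had 2.86, 3.14 and 3.53 in unstimulated, 1.44, 2.40 and 2.55 in DMSO and -0.48, 1.28 and 1.39 in belinostat libraries. Every belinostat library lay below every DMSO library, with -1.41 ± 0.22 (adjusted p = 1e-06, edgeR). LINC01914 (chr2:41932118-41932829, 115548 bp from PKDCC) went from 3.48, 3.91 and 4.07 to 2.05, 2.77 and 3.25 (-1.15 ± 0.15, adjusted p = 1.07e-09, edgeR). LINC01517 (chr10:28845296-28845723) was level between unstimulated and DMSO libraries (-0.03 ± 0.14) and went from 2.85, 3.09 and 3.37 to 1.68, 1.97 and 2.45 under belinostat (-1.11 ± 0.17, adjusted p = 3.41e-07, edgeR). By the naming rule none of these overlapped between DMSO and belinostat libraries.

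SYN3-AS1, antisense to the gene of synapsin III, moved in opposite directions in the 2 steps. It had 1.45, 1.81 and 2.21 in unstimulated, 1.91, 2.18 and 2.84 in DMSO and 0.74, 1.20 and 1.76 in belinostat libraries. Its values were 0.57 ± 0.18 after cytokines (adjusted p = 0.0183, edgeR, with overlapping groups) and -1.16 ± 0.21 under belinostat (adjusted p = 3.06e-05, edgeR, without overlap). Both use the same DMSO libraries. LINC01814, whose peak was centred 133638 bp from the nearest start of ID2, fell from 3.40, 3.55 and 3.61 to 2.20, 2.40 and 3.15 (-1.01 ± 0.15, adjusted p = 2.01e-07, edgeR). ENSG00000243944 had -1.11 ± 0.25 and ENSG00000228503 -0.94 ± 0.14, with adjusted p of 0.00182 and 3.27e-07 (edgeR). Of the 7 named falls, HCG18, LINC01517 and LINC01814 held the AP-1 word in the 300 bases around the centre, LINC01914 and ENSG00000243944 the TEAD word and SYN3-AS1 and ENSG00000228503 neither.

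Only 3 rises of genes with a symbol met the naming rule under belinostat. Over all called lncRNA-start peaks the median size of the log2 fold change was 0.91 for opened and 0.67 for closed peaks. LINC00513 (chr7:130853515-130853944, centred 3 bp from the start), a lncRNA tied to interferon signalling, had 1.24, 1.54 and 1.94 in unstimulated, 0.74, 0.93 and 1.54 in DMSO and 1.61, 1.81 and 2.47 in belinostat libraries (0.92 ± 0.22 against DMSO, adjusted p = 0.00463, edgeR). HRG-AS1 had 2.45, 2.99 and 3.57, then 1.20, 2.55 and 2.63, then 2.88, 3.19 and 3.42 (0.76 ± 0.16, adjusted p = 0.00105, edgeR). LINC02889, with its peak 223659 bp from the nearest start of the aryl hydrocarbon receptor gene AHR, had 2.84, 2.89 and 2.99, then 2.26, 2.60 and 3.01, then 3.19, 3.26 and 3.58 (0.69 ± 0.15, adjusted p = 0.000897, edgeR). In all 3 the belinostat libraries lay above the DMSO libraries, and in LINC00513 and HRG-AS1 they overlapped with the unstimulated ones. ENSG00000229177 rose by 0.93 ± 0.20 and ENSG00000286538, 20054 bp from CCNE1, by 0.77 ± 0.16. HRG-AS1 and ENSG00000286538 held the TEAD word and LINC00513 the AP-1 word.

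Against unstimulated cells, belinostat-treated cells showed more calls than DMSO-treated cells. With TMM factors 1156 lncRNA-start peaks opened (14.5%, all peaks 16.8%) and 1426 closed (17.9%, all peaks 13.7%). With loess offsets 361 opened (4.53%, all peaks 3.57%) and 359 closed (4.51%, all peaks 4.83%), and 210 and 253 passed under both. Here too the balance turned, with 27.1% opened and 7.77% closed with library totals (all peaks 30.4% and 6.31%) and 2.15% and 38.1% with factors from the weaker 50% of peaks (all peaks 2.63% and 30.8%). By the count without overlap 20 rose (0.251%, all peaks 0.162%) and 581 fell (7.30%, all peaks 5.86%). The larger number does not show that belinostat widened the change, since the difference between the residual and the cytokine contrast is the belinostat contrast, in which 38 and 152 were called.

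HCG18 had the largest fall here too, with -2.30 ± 0.20 (adjusted p = 2.7e-20, edgeR), with its 6 belinostat libraries at most at 1.39 and its 6 unstimulated libraries at least at 2.86. LINC01914 followed with -1.71 ± 0.14 and LINC00607 with -1.54 ± 0.14. LINC00607 (chr2:215660662-215661231), a lncRNA active in fibroblasts and endothelial cells with its peak 224873 bp from the nearest start of the fibronectin gene FN1, stepped down in both contrasts, from 3.95, 4.27 and 4.47 to 3.24, 3.61 and 3.88 and to 2.15, 2.80 and 3.08. The groups did not overlap at either step, with -0.62 ± 0.12 (adjusted p = 0.000141, edgeR) and -0.92 ± 0.15 (adjusted p = 1.8e-06, edgeR). Its loess values were -0.29 and -0.78, both past the threshold.

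Of the rises against unstimulated cells that met the naming rule, the 3 largest with a symbol were LINC01838 with 1.19 ± 0.25 (adjusted p = 9.53e-05, edgeR), ROCK1P1 with 1.17 ± 0.19 (adjusted p = 2.52e-07, edgeR) and LINC01939 with 0.96 ± 0.26 (adjusted p = 0.00214, edgeR). ROCK1P1 had 0.65, 1.70 and 1.95 in unstimulated, 1.86, 2.23 and 2.44 in DMSO and 1.96, 2.68 and 2.93 in belinostat libraries. It is a partial copy of ROCK1, so reads may be shared with the parent gene and its value is uncertain. LINC01838 was at -0.10, 0.61 and 0.88, then 1.23, 1.41 and 1.54, then 0.94, 1.47 and 2.15, so its rise was present with DMSO and belinostat moved it by 0.23 ± 0.22 (adjusted p = 0.623).

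Lists of lncRNAs with a known setting were looked up next, and some genes stand in more than 1 list. With TMM factors 9.51% of all peaks opened and 9.73% closed after cytokines, and with loess offsets 1.86% and 1.91%. In the strongest class of all peaks 42.4% closed, with a median log2 fold change of -0.32. Belinostat opened 0.607% and closed 1.75% of all peaks with TMM factors, and 0.95% and 1.55% with loess offsets. Of 18 lncRNAs linked to inflammation, 10 had a lncRNA-start peak, and each is described by its strongest. After cytokines 0 of the 10 opened and 5 closed with TMM factors (median -0.35, all peaks 0.13), and 1 opened and 0 closed with loess offsets (median -0.05, all peaks 0.01). The 5 were NEAT1, the scaffold of paraspeckles (-0.48 ± 0.12, adjusted p = 0.00248), MIR155HG, host of miR-155 (-0.55 ± 0.16, adjusted p = 0.00966), CYTOR (-0.49 ± 0.14, adjusted p = 0.0107), MIR31HG (-0.36 ± 0.13, adjusted p = 0.0388) and MIR4435-2HG (-0.44 ± 0.11, adjusted p = 0.00224), all by edgeR. The call with loess offsets was LUCAT1, a lncRNA induced by stress and interferon, which had 4.22, 4.39 and 4.58 in unstimulated and 4.02, 4.38 and 4.58 in DMSO libraries. Those groups overlap almost fully, and its value was -0.09 under TMM and 0.28 under loess (adjusted p = 0.022, edgeR). MIR3142HG, host of miR-146a, a brake on NF-κB signalling, had -0.13 ± 0.12 (adjusted p = 0.465). Belinostat called 0 of the 10, with a median of -0.11 (all peaks 0.01).

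Of 25 mesenchymal and smooth muscle lncRNAs, 13 had a lncRNA-start peak. With TMM factors 9.51% of all peaks opened after cytokines, and 9.73%, or 42.4% of those in the strongest class, closed. In this list 0 opened and 5 closed with TMM factors (median -0.34) and 0 and 0 with loess offsets (median -0.08). Those closed were DNM3OS, host of miR-199a and miR-214 in fibroblasts (-0.49 ± 0.11), MYOSLID, a lncRNA of smooth muscle differentiation (-0.35 ± 0.11), MIR100HG (-0.47 ± 0.13), MEG3 (-0.34 ± 0.13) and CARMN. Belinostat closed 1 of the 13 with TMM factors, CARMN (all peaks 1.75%), and 0 with loess offsets (all peaks 1.55%).

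The only lncRNA-start peak of CARMN, the host of the 2 smooth muscle microRNAs shown above, was lowest under belinostat. This peak (chr5:149420571-149420810, in a later exon) was centred 162 bp past a transcript start inside the gene body, which begins at 149406689. It had 2.49, 3.08 and 3.30 in unstimulated, 2.33, 2.56 and 2.85 in DMSO and 0.48, 2.05 and 2.49 in belinostat libraries. Against DMSO it changed by -0.63 ± 0.18 (adjusted p = 0.0313, edgeR), with overlapping groups and with -0.53 (adjusted p = 0.07) under loess offsets. Against unstimulated cells it was -1.06 (adjusted p = 3.66e-07, edgeR) with TMM factors and -0.70 (adjusted p = 0.00161) with loess offsets. Start peaks of the 4 smooth muscle markers MYH11, DES, CNN1 and ACTG2 summed to 34.5 to 46.1 CPM in unstimulated, 29.2 to 36.3 in DMSO and 21.8 to 35.9 in belinostat libraries, and their part in the CARMN value was not tested.

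Of 20 widely expressed lncRNAs 12 had a lncRNA-start peak. By the strongest peak of each, 1 opened and 10 closed with TMM factors (median -0.42), and 0 opened and 1 closed with loess offsets (median -0.06). Over all 49 lncRNA-start peaks of these genes, weak ones included, 2 opened and 17 closed with TMM factors. Of all peaks 9.51% opened and 9.73% closed, and in the strongest class 42.4% closed. With loess offsets 1.86% of all peaks opened and 1.91% closed. Those closed included MALAT1, a lncRNA of nuclear speckles (-0.44 ± 0.11), NORAD, which binds Pumilio proteins (-0.36 ± 0.12), DANCR (-0.41 ± 0.10) and LINC00667, which stayed closed with loess offsets (-0.61 ± 0.11 under TMM and -0.23, adjusted p = 0.0205, under loess, edgeR). The opened one, ZFAS1, was a weak peak in an intron, 513 bp from the nearest annotated start, at 1.16 CPM per kb (1.52 ± 0.54, adjusted p = 0.0345, edgeR). Of 31 snoRNA hosts, whose introns carry small nucleolar RNAs, 17 had a peak, of which 2 opened (ZFAS1 and SNHG14) and 11 closed, and 0 and 0 with loess offsets. Belinostat called 0 in either list (all peaks 0.607% opened and 1.75% closed with TMM factors).

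Of 86 microRNA hosts, 52 had a lncRNA-start peak. Over all peaks 9.51% opened and 9.73% closed after cytokines with TMM factors, and 1.86% and 1.91% with loess offsets. In the strongest class of all peaks 42.4% closed with TMM factors. Of the 52 hosts 2 opened and 21 closed (median -0.30), against 1 and 0 with loess offsets (median 0.02). Those closed included MIRLET7A1HG, MIR17HG (-0.37 ± 0.10, adjusted p = 0.00803) and MIR23AHG (-0.53 ± 0.13, adjusted p = 0.00187), and those opened were MIR3945HG and MIR3147HG (edgeR). MIR3945HG stood out in passing under both scalings: it had 0.89, 1.42 and 1.77 in unstimulated, 1.22, 2.08 and 2.25 in DMSO and 1.68, 1.94 and 2.12 in belinostat libraries, with 0.68 ± 0.20 (adjusted p = 0.0106, edgeR) under TMM and 0.85 (adjusted p = 0.00368) under loess. Under belinostat, by the strongest peak of each, 1 host closed with TMM factors, CARMN (all peaks 1.75%). With loess offsets 3 opened (all peaks 0.95%): MIR1915HG (0.52, adjusted p = 0.000258), MIR181A2HG (0.34, adjusted p = 0.00625) and MIR7515HG (0.27, adjusted p = 0.00332, edgeR). Over all 132 lncRNA-start peaks of the hosts 2 opened and 1 closed with TMM factors. Those opened were at MIR100HG (0.84, adjusted p = 0.00457) and MIR646HG (1.28, adjusted p = 0.0469, edgeR).

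For the next 3 lists, too, 9.51% of all peaks opened and 9.73% closed after cytokines with TMM factors, and 1.86% and 1.91% with loess offsets. In the strongest class 42.4% closed with TMM factors, but some peaks of these lists lay outside that class. Median levels were 5.08 (imprinted), 9.59 (p53 or cancer) and 3.88 (other cell types) CPM per kb. Of 19 imprinted lncRNAs 10 had a peak, with 1 opened (SNHG14, 0.88 ± 0.30) and 2 closed (KCNQ1OT1, which silences its neighbours in cis, -0.39 ± 0.11, and MEG3), and 0 and 0 with loess offsets. H19, the maternally expressed lncRNA next to IGF2, had -0.17 ± 0.25 (adjusted p = 0.664). Of 28 lncRNAs linked to p53 or cancer 15 had a peak, with 0 opened and 6 closed, among them BANCR, the only 1 closed also with loess offsets, LINC00511 (-0.35 ± 0.11) and LINC-PINT, a target of p53 (-0.44 ± 0.16). Of 20 lncRNAs of other cell types 9 had a peak, with FAM99A and FAM99B opened under both scalings and FALEC and MEF2C-AS1 closed, of which MEF2C-AS1 was closed under both. Belinostat called 0 in these 3 lists with TMM factors and, with loess offsets, BANCR alone as opened. Over all peaks 0.607% opened and 1.75% closed with TMM factors, and 0.95% opened with loess offsets.

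**Figure D5:**
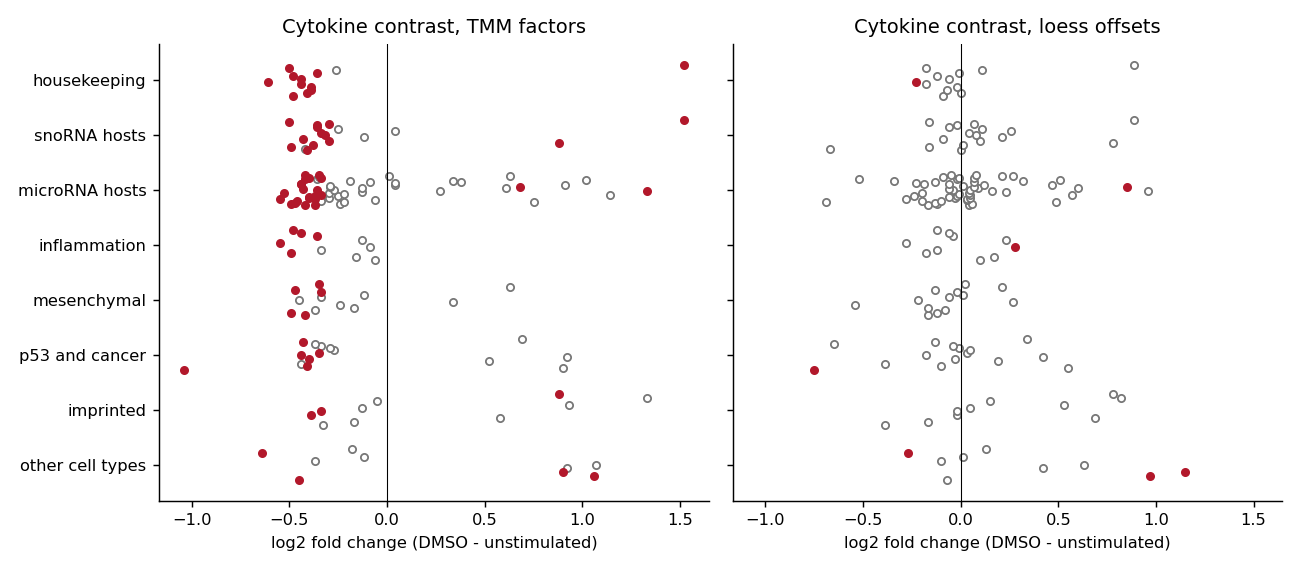
Log2 fold change in the cytokine contrast (DMSO minus unstimulated) of the strongest lncRNA-start peak of each listed gene, by list, with TMM factors (left) and loess offsets (right). Filled points were called by edgeR and open points were not; points are spread vertically within a list for legibility. Most filled points lie below 0 with TMM factors, and few remain with loess offsets.

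Genes with many annotated starts held peaks of very different strength. The calls below are with TMM factors, by which 9.51% of all peaks opened and 9.73% closed after cytokines. In the weakest class 12.2% of all peaks opened and in the strongest 42.4% closed. LINC00511 had 23 lncRNA-start peaks with levels of 0.993 to 43.0 CPM per kb, of which 2 opened and 3 closed after cytokines. SNHG14, a long transcript of the imprinted Prader-Willi region, had 16 weak peaks (0.810 to 4.11 CPM per kb), of which 4 opened and 0 closed. CYTOR had 12, of which 5 closed, and MIR100HG 11, of which 5 closed, and belinostat opened 1 peak in each (all peaks 0.607%). Among the 1767 genes with 2 or more such peaks, 30 had an opened and a closed peak after cytokines. Peaks of 1 gene share the locus and are not independent of each other.

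Changes at lncRNA starts and at the start of the nearest coding gene were weakly correlated. For 7178 lncRNA-start peaks the strongest peak within 1 kb of a start of the nearest coding gene was taken as partner. Over 1481 pairs within 50 kb whose mean log2 CPM reached 1 in both, Pearson's r of the log2 fold changes was 0.14 and Spearman's rho 0.11 in the cytokine contrast, and over 251 pairs more than 200 kb apart they were 0.14 and 0.11. With loess offsets r was 0.13 and 0.10. In the belinostat contrast r was 0.03 and 0.04. These describe pairs across the genome that share libraries and depth, and several pairs share a coding gene. Of 942 lncRNA-start peaks closed after cytokines, 662 partners (70.3%) closed too, against 59.9% of partners in all pairs, and of 137 closed by belinostat 2 partners (1.46%), against 1.37%.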

How the data were processed

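Counts of ATAC-seq fragments in consensus peaks were measured in 18 libraries of Ccd18-Co cells, prepared by the Omni-ATAC protocol. The authors deposited raw counts per peak: reads were trimmed and aligned to hg38, duplicates and mitochondrial reads were removed, peaks were called with MACS2 and merged across conditions, and fragments were counted with csaw. File starts were read as 0-based. The scaling factors of the study, from 10 kb background bins, could not be rebuilt from peak counts, so TMM factors from the peaks were used.

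Peaks were assigned to GENCODE release 44 transcripts. All 334857 peaks were fitted with edgeR 4.0.16 (R 4.3.3, glmQLFit and glmQLFTest) over 18 libraries and 3 groups without covariates, and p-values were adjusted by the Benjamini-Hochberg method over all of them. Loess offsets along average abundance (span 0.3) were the main alternative, with limma 3.58.1 and DESeq2 1.42.0 also used. Log2 CPM carry a prior count of 2, and levels are the mean CPM per kb of peak in the 6 unstimulated libraries. Peak strength classes are 5 equal parts of all peaks by average log2 CPM.

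Named peaks were called in a contrast at an adjusted p under 0.05, reached 1 in mean log2 CPM and did not overlap between the 2 groups. The 5 largest rises and falls with a symbol and the 2 largest with an Ensembl ID only were taken (3 with a symbol in the residual contrast), with the 10 strongest peaks and the listed lncRNAs by their strongest peak. The lncRNA-start peaks and the lists were chosen with earlier results of these data known, and the CpG-rich split was chosen after seeing the data. The fits were also run on simulated counts. These held no difference between libraries along peak abundance, so they cannot show which scaling is right. ATAC-seq carries no strand, so antisense and overlapping genes share their signal.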

Additional observations from a re-analysis of the deposited data

Results flagged for a closer look

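In 126 groups of 6 libraries, 14 values stood far from the other 5 libraries of their group, and chance gives about 1 in 20 such groups. For log2 CPM in DMSO libraries, stimulated_DMSO 1 was low at BANCR (0.82, others 2.21 to 2.83), HCG18 (1.44, others 2.39 to 2.55), HRG-AS1 (1.20, others 2.44 to 2.63) and ENSG00000286538 (1.76, others 2.22 to 2.39). Among belinostat libraries, stimulated_Belinostat 1 was low at LINC01471 (-0.17, others 1.15 to 1.93) and ENSG00000224079 (-1.04, others 1.04 to 1.80), and stimulated_Belinostat 4 at LINC02554 (0.19, others 1.40 to 1.72) and HCG18 (-0.48, others 0.82 to 1.39). Stimulated_Belinostat 5 was low at ENSG00000286951 (0.86, others 1.32 to 1.53) and stimulated_Belinostat 6 high at LINC01814 (3.15, others 2.20 to 2.45). Unstimulated 5 was low at LINC01939 (-0.45, others 0.50 to 1.04).

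The other 3 concern whole libraries. Stimulated_Belinostat 1 had 3.26% of its fragments in lncRNA-start peaks (others 3.13% to 3.17%) and 4.72% of these peaks without a fragment (others 0.414% to 1.78%), and unstimulated 6 had 8.83% without one (others 0.665% to 3.48%).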

How the results depend on the processing

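Shares of lncRNA-start peaks called depended on the scaling. In the cytokine contrast opened and closed shares were 14.3% and 3.82% with library totals, 1.83% and 30.6% with TMM factors from the weaker 50% of peaks, 2.25% and 1.87% with loess offsets and 3.80% and 7.52% with DESeq2. In the residual contrast they were 27.1% and 7.77% with library totals, 2.15% and 38.1% with the weaker 50%, and 4.53% and 4.51% with loess offsets. In the belinostat contrast the opened share was 1.02% with library totals, 0.0251% with the weaker 50%, 1.14% with loess offsets, 0.301% with DESeq2 and 1.09% for peaks with an average log2 CPM over 0, and the closed share 1.05% with the weaker 50% and 3.28% for that filter. The median of lncRNA-start peaks minus that of all peaks was 0.00 (cytokine) and 0.01 (residual) with loess offsets. The median of all peaks in the cytokine contrast was 0.34 with library totals and -0.28 with the weaker 50%. The cause was not tested.

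With each library left out, the cytokine shares were 4.60% to 8.97% opened and 8.02% to 15.1% closed, the belinostat shares 0.226% to 0.691% and 1.29% to 3.08%, and the residual shares 9.78% to 16.6% and 15.4% to 19.9%. Shares moved by over 1.5 times without unstimulated 6 (4.60% and 8.02%), unstimulated 1 (8.73% closed) and stimulated_DMSO 4 (5.21% opened) in the cytokine contrast, and without stimulated_DMSO 1 (0.226%), stimulated_DMSO 2 (0.239%), stimulated_Belinostat 3 (0.301%) and stimulated_Belinostat 6 (0.314%) for opened and stimulated_Belinostat 1 (3.08%) for closed peaks in the belinostat contrast.

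With the replicate number as a replicate block the shares were 8.19% and 14.0%, 0.465% and 2.17%, and 14.0% and 18.0% in the 3 contrasts. Deviations of same-numbered libraries from their group means correlated at -0.133 to 0.106, and 4 of 18 correlated best with their own number, so no pairing was seen. Such weak correlations cannot tell whether same-numbered libraries shared a culture or plate. Among the named peaks no direction reversed in the 26 alternatives and every named fall kept its call. Rises lost theirs with the weaker 50% alone, at LINC01471, LINC01838, LINC01033 and FAM99B (cytokine), LINC00513, HRG-AS1, LINC02889, ENSG00000229177 and ENSG00000286538 (belinostat) and LINC01838 and LINC01939 (residual). Weak peaks with few fragments limit the rises.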
